A study of Oryza sativa with 2 samples.

Results

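Brassinosteroids are plant steroid hormones, and 10 rice genes that make them or pass on their signal were examined here in seedlings of the wild-type indica cultivar 93-11. The genes were chosen by their place in the pathway, as a list of locus IDs, and each was found on 1 of the 37896 rows of both expression tables. Of the 10 genes, 6 belong to signalling (BRI1, BAK1, GSK2, BZR1, DLT and LIC) and 4 to synthesis (D2, D11, BRD1 and BRD2). Poly(A) RNA came from whole plants 3 weeks old, raised in hydroponic Yoshida solution under short days of 10 h light and 14 h dark, at 800 μmol m-2 s-1. A single group was measured in 2 libraries, replicate 1 and replicate 2, with no treatment, mutant or second cultivar. Whether the libraries stem from different plants is not in the labels, and part of the spread between them may be technical.

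In rice, brassinosteroids control the angle of the leaf blade, plant height and grain size. The hormone binds the receptor kinase BRI1 at the cell surface, which acts together with the co-receptor BAK1. Without hormone, the kinase GSK2 phosphorylates and holds back downstream regulators, among them the transcription factor BZR1. BZR1 in turn represses genes of hormone synthesis, so the pathway feeds back on its own supply. Synthesis starts from plant sterols, to which BRD2 contributes, and cytochrome P450 enzymes such as D2, D11 and BRD1 carry out later oxidations.

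The authors deposited FPKM, which scales the fragments of a gene by the length of its transcript and by the size of the library, so levels of different genes can be set beside each other. The number of fragments behind a value is unknown, and no counting error is given. With 2 libraries of 1 group there is no contrast to test, and values are given per library and as mean ± SD. The names of 7 of the 10 genes stand in the RefSeq gene table of japonica rice (assembly ASM3414082v1), each on the chromosome that its locus ID gives. The names DLT, BRD1 and BRD2 were not found there. Only 1 of the 39387 entries of that table is paired with a listed locus ID, so the pairing of names with IDs rests on the list. For the same reason the labelled tissue could not be checked against marker genes. Another 35 gene symbols of the pathway were sought, 20 of them are in the table and 0 are paired with a listed locus, so their levels are not analysed here.

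All 10 genes were expressed at low to moderate levels. Each reached 1 FPKM, the level called detected here, in both libraries, as did 53.1% of all rows. The mean was at least 10 FPKM for 5 of the 10 genes and for 27.4% of all rows. The highest gene was BRD2, with a mean of 42.5 FPKM, and the lowest was D11, with 3.58 FPKM, a range of 11.9-fold. The median of the 10 genes lay at the 73.6 percentile of all rows, between the 56.5 percentile for D11 and the 92.8 percentile for BRD2. Among the rows detected in both libraries, that median lay at the 50.6 percentile, close to the middle. The genes thus stood above the median row of the table, and about level with the median expressed row.

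Both components of the receptor complex had means above 10.4 FPKM, the median of rows detected in both libraries. BRI1 (LOC_Os01g52050, chromosome 1), the leucine-rich repeat receptor kinase that binds the hormone, had levels of 14.1 and 17.6 FPKM in replicates 1 and 2. Its mean was 15.8 ± 2.43 FPKM (SD, n = 2), at the 80.7 percentile of all rows. BAK1 (LOC_Os08g07760, chromosome 8), the co-receptor kinase of BRI1, had levels of 21.8 and 22.5 FPKM in replicates 1 and 2. Its mean was 22.2 ± 0.558 FPKM, with a coefficient of variation of 2.52% as deposited. BAK1 lay above BRI1 in both libraries, by 1.54-fold in replicate 1 and 1.28-fold in replicate 2, and the values of the genes did not overlap.

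The kinase and the transcription factor it holds back differed in level. GSK2 (LOC_Os05g11730, chromosome 5), a kinase of the GSK3 and SHAGGY family and a negative regulator of the pathway, had levels of 9.65 and 9.98 FPKM in replicates 1 and 2. Its coefficient of variation was 2.39%, the smallest of the 10 genes as deposited, although LIC and D11 were closer once totals were made equal. BZR1 (LOC_Os07g39220, chromosome 7), the transcription factor that carries the signal to target genes, had levels of 21.6 and 26.4 FPKM in replicates 1 and 2. With a mean of 24.0 ± 3.43 FPKM (SD, n = 2), BZR1 was the highest of the 6 signalling genes by mean. GSK2 stood at 0.413 ± 0.0493 times the level of BZR1 (SD, n = 2), and it was the lower gene in both libraries without overlap. These are transcript levels, and they say nothing of the phosphorylation through which GSK2 acts.

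The remaining regulators, LIC and DLT, were the lowest signalling genes by mean. LIC (LOC_Os06g49080, chromosome 6), a zinc finger protein with a role opposed to that of BZR1, had levels of 5.002 and 4.65 FPKM in replicates 1 and 2. It stood at 0.204 ± 0.0395 times the level of BZR1 (SD, n = 2), so the transcript of BZR1 was the more abundant in both libraries. DLT (LOC_Os06g03710, chromosome 6), a GRAS family protein whose loss gives dwarf plants with few tillers, had levels of 3.11 and 7.37 FPKM in replicates 1 and 2. DLT had the widest relative spread of the 10 genes, with a mean of 5.24 ± 3.01 FPKM (SD, n = 2) and a coefficient of variation of 57.5%. It was below LIC in replicate 1 and above LIC in replicate 2. DLT lay below its regulator GSK2 in both libraries, at 0.322 times the level of GSK2 in replicate 1 and 0.738 times in replicate 2.

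**Figure D1:**
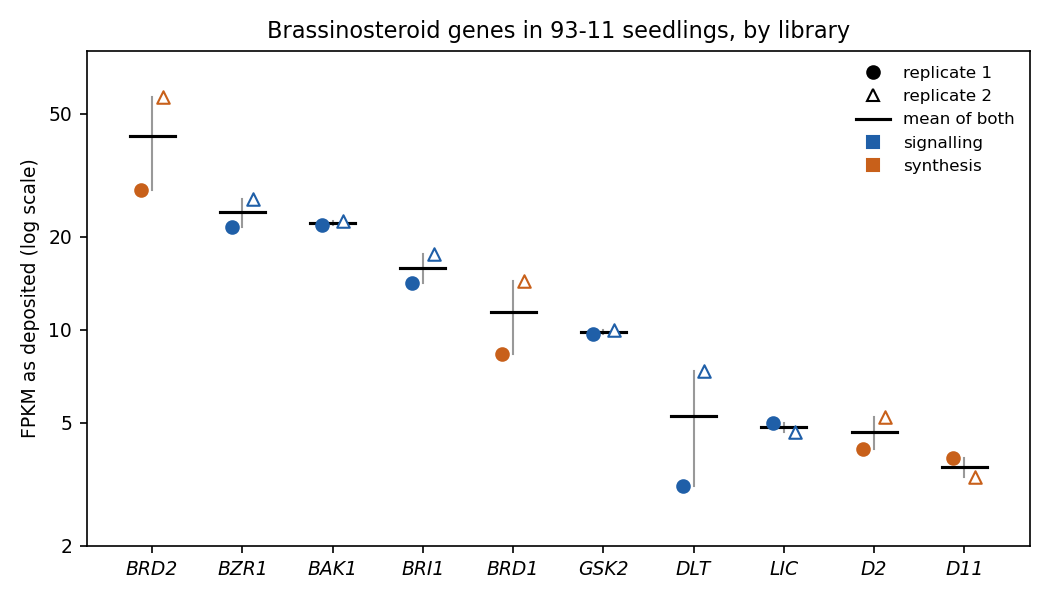
Level of the 10 brassinosteroid genes in FPKM on a log axis, sorted by mean, with replicate 1 as filled circles, replicate 2 as open triangles, a thin line between them and the mean as a bar. BRD2, BRD1 and DLT show the longest lines, while BAK1, GSK2 and LIC show the shortest.

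Among the synthesis genes, the sterol gene BRD2 stood far above the P450 genes. BRD2 (LOC_Os10g25780, chromosome 10), the rice counterpart of the Arabidopsis sterol reductase gene DWF1, acts upstream of the P450 enzymes, and the sterols it helps to make also serve as membrane lipids. Its levels were 28.4 and 56.7 FPKM in replicates 1 and 2, a mean of 42.5 ± 20.02 FPKM (SD, n = 2). As deposited, the lower of these values was above every other member in either library, of which the highest was BZR1 at 26.4 FPKM in replicate 2. With both libraries scaled to the same total this no longer held, since BRD2 was then at 27.0 FPKM in replicate 1 and BZR1 at 27.9 FPKM in replicate 2. BRD2 alone held 23.7% of the summed FPKM of the 10 genes in replicate 1 and 33.7% in replicate 2.

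The P450 genes differed among themselves. BRD1 (LOC_Os03g40540, chromosome 3), the oxidase that completes the making of the active hormone castasterone, had levels of 8.32 and 14.4 FPKM in replicates 1 and 2. D2 (LOC_Os01g10040, chromosome 1), a P450 whose loss gives dwarf plants with erect leaves, had levels of 4.10 and 5.22 FPKM in replicates 1 and 2. D11 (LOC_Os04g39430, chromosome 4), a P450 whose loss gives small round grains, had levels of 3.84 and 3.33 FPKM in replicates 1 and 2. BRD1 was the highest and D11 the lowest of these in both libraries, and no values of the 3 genes overlapped. The gap from D2 to D11 was narrow in replicate 1, where D2 was 1.07 times D11, and wider in replicate 2, at 1.57 times.

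BRD2 exceeded each P450 gene in both libraries. It stood at 6.92 times D2 in replicate 1 and 10.9 times in replicate 2, and at 7.39 and 17.0 times D11 in the same libraries. Against BRD1 the ratio was steadier, at 3.41 in replicate 1 and 3.93 in replicate 2, or 3.67 ± 0.368 (SD, n = 2). BRD2 and BRD1 were both higher in replicate 2, and their ratio to each other therefore moved less than the level of either gene.

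Sorted by mean, the order of levels was BRD2, BZR1, BAK1, BRI1, BRD1, GSK2, DLT, LIC, D2 and D11. As deposited, 4 of the 9 pairs of neighbours in this order did not overlap between libraries, namely BRD2 above BZR1, BAK1 above BRI1, GSK2 above DLT, and D2 above D11. Scaled to the same total the number was 3, since BRD2 and BZR1 then overlapped. BRI1 lay above BRD1 in each library taken alone, although their values overlapped across libraries. The other 4 pairs changed order with the library, namely BZR1 and BAK1, BRD1 and GSK2, DLT and LIC, and LIC and D2. These neighbours did not differ beyond their spread. Over all 45 pairs of the 10 genes as deposited, 38 did not overlap and 6 changed order with the library. The broad order was thus shared by the libraries, while DLT changed place with LIC, D2 and D11. Overlap was not counted for other loci, so these numbers of pairs are not a result about the genes.

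How the level of signalling genes compared with that of synthesis genes depended on how the classes were summarised. The median of the 6 signalling genes was 11.9 and 13.8 FPKM in replicates 1 and 2, and that of the 4 synthesis genes was 6.21 and 9.82 FPKM. On the scale of log2(FPKM + 1), the signalling median exceeded the synthesis median by 0.71 ± 0.24 (SD, n = 2). The difference was 0.22 when mean log2 levels replaced medians and 1.26 when BRD2 was left out. On the summed FPKM it was 0.45, but this sets 6 signalling genes against 4 synthesis genes. The sum thus favours signalling by gene number and does not show a higher level per gene. Both classes held genes near 5 FPKM and genes above 10 FPKM, so their ranges overlapped. The signalling genes, 6 of the 10, held 62.8% of the summed FPKM of the 10 genes in replicate 1 and 52.6% in replicate 2. The mean of these shares was 57.7%. In replicate 2 and on average the share was below 6 of 10, so the mean FPKM per gene was there higher for synthesis. In replicate 1 it was higher for signalling.

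**Figure D2:**
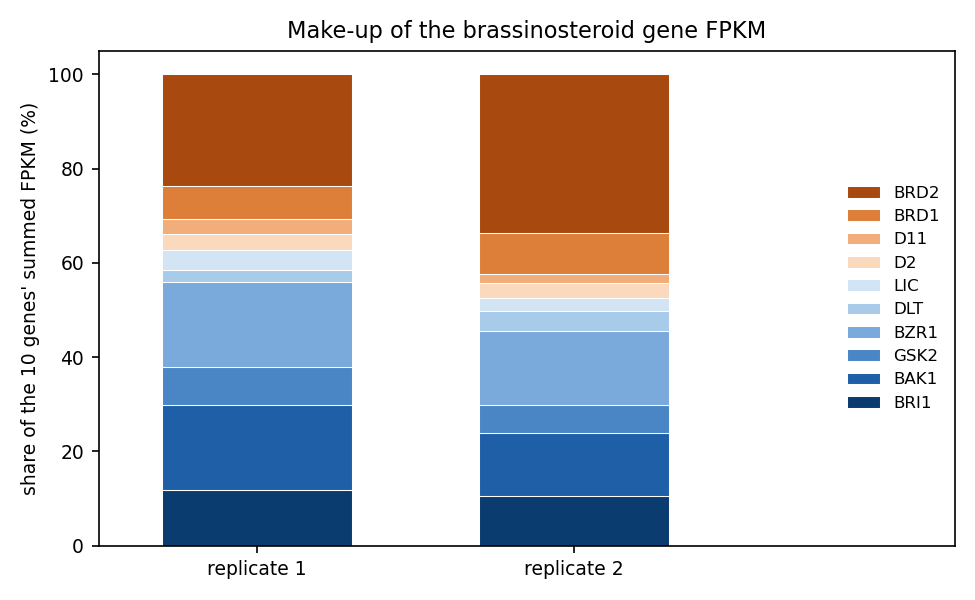
Share of each gene in the summed FPKM of the 10 genes, in percent, stacked from BRI1 at the bottom to BRD2 at the top, with signalling genes in blue and synthesis genes in orange. The orange part is 37.2% in replicate 1 and 47.4% in replicate 2, and most of the difference lies in BRD2.

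BRD2, DLT and BRD1 differed most between the libraries, and all were higher in replicate 2. As deposited, replicate 2 exceeded replicate 1 by 2.37-fold for DLT, 2.00-fold for BRD2 and 1.73-fold for BRD1. The summed FPKM of the 4 synthesis genes was 44.6 in replicate 1 and 79.6 in replicate 2, or 1.78-fold higher in replicate 2. For the 6 signalling genes the sums were 75.2 and 88.5, or 1.18-fold higher in replicate 2. Over all rows the sum went the other way, at 741624 and 668305 FPKM in replicates 1 and 2. The median over all rows was 1.77 and 2.09 FPKM in the same libraries, or 1.18-fold higher in replicate 2. This sets the medians of the libraries side by side and does not compare row with row. As deposited, only 44.8% of rows whose mean was at least 1 FPKM were higher in replicate 2. After scaling to the same total the share was 59.4%, so the direction of most of those rows depended on the scaling. A sum over 6 genes and a share of rows are unlike measures.

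For the comparison of the libraries, both were scaled to the same total and compared on log2(FPKM + 1), where the added 1 makes the fold of a low gene smaller. Scaling to the same total moved the ratios of replicate 1 over replicate 2 by -0.15 on the log2 scale, against -0.04 for the median of ratios. On this scale 3 of the 10 genes differed by more than 1.5-fold, and all 3 were higher in replicate 2. Among rows whose mean was at least 1 FPKM, 20.9% differed by as much, 15.3% in this direction. More than 2-fold was reached by 2 of the 10 genes, DLT at 2.22-fold and BRD2 at 2.17-fold, both higher in replicate 2. It was reached by 8.97% of those rows, with 7.29% of the rows in this direction. With 1 FPKM added but no scaling, DLT was at 2.04-fold and BRD2 at 1.96-fold, so BRD2 then fell short of this limit. At the lowest fold limit tried, 6 of the 10 genes and 41.3% of those rows differed. Read against these shares, 3 genes of 10 is not a result about the genes as a set. The median gene of the 10 differed by 1.34-fold and the median of those rows by 1.19-fold.

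Each gene was then set against loci of like level, those within 0.5 of it on the scale of log2(mean FPKM + 1). BRD2 differed by more than did 94.1% of 2156 such loci, whose median difference was 1.18-fold. DLT differed by more than did 91.1% of 4713 loci with a median difference of 1.20-fold, and BRD1 by more than did 90.8% of 5005 loci with a median of 1.16-fold. Without scaling, these shares were 93.1% for BRD2, 89.8% for DLT and 88.4% for BRD1. The differences at these 3 genes were thus in the outer part of what replicates of this group gave at their level, with 127, 419 and 460 loci of like level at least as far apart as BRD2, DLT and BRD1. With 1 library on each side they have no replicate check.

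The other 7 genes lay closer together in the libraries. BRI1 and BZR1 were 1.35-fold and 1.34-fold apart after scaling, more than were 77.4% and 77.3% of loci of like level. D2 was 1.33-fold apart, more than were 63.8% of such loci, and BAK1 and GSK2 were 1.14-fold and 1.13-fold apart, near the middle of theirs. LIC and D11 were the closest, at 1.03-fold each, with 7.84% and 7.79% of loci of like level closer still. After scaling to the same total, 9 of the 10 genes were higher in replicate 2, as were 59.4% of rows whose mean was at least 1 FPKM. As deposited, 8 of the 10 genes and 44.8% of those rows were higher in replicate 2, and LIC and D11 were higher in replicate 1.

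**Figure D3:**
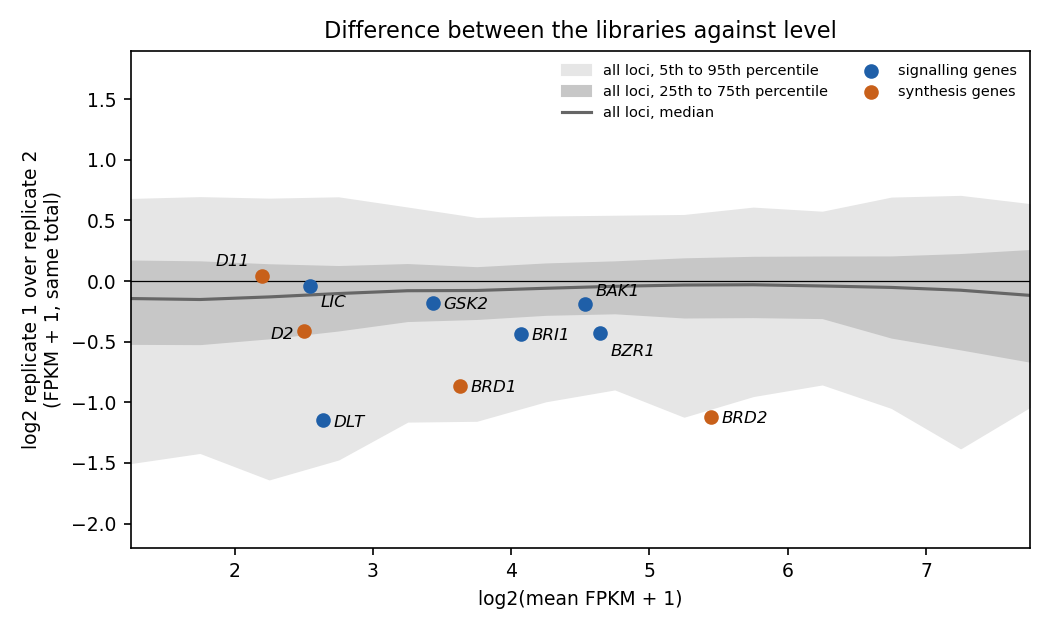
Log2 ratio of replicate 1 over replicate 2 after scaling to the same total, against log2(mean FPKM + 1), with the 10 genes as points and all loci as grey bands in steps of level. BRD2, DLT and BRD1 lie lowest, at -1.12, -1.15 and -0.86, and BRI1 and BZR1 also lie below the darker band that holds the middle of all loci, while LIC and D11 lie at -0.04 and 0.04.

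The library values of a gene can also be described by the number of loci whose mean fell between them. This number depends on how many loci lie at that level as well as on the spread. For DLT there were 4794 such loci, or 12.7% of all rows, and for BRD1 there were 3749. For BRD2 there were 2221, fewer than for DLT or BRD1, although BRD2 was further apart in fold than BRD1. For BAK1 there were 176 and for GSK2 there were 225. As deposited, BAK1 and GSK2 thus spanned fewer loci than DLT. Scaled to the same total, BAK1 and GSK2 were further apart than 46.2% and 42.5% of loci of like level, near the middle. Such counts of loci were not taken for other genes.

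The 10 genes lie on 8 chromosomes, with BRI1 and D2 on chromosome 1, DLT and LIC on chromosome 6, and no pair adjacent in number. Locus numbers give an order along a chromosome and not a distance. Of the 100 nearest loci, taken as 5 on each side of every gene, 54 were detected in both libraries, near the 53.1% of all rows. BRD1 and BAK1 were each above all 10 of their nearest loci, and BRD2 above 9 of 10. The share of other loci placed so was not taken. Around BRD1 the median locus stood at 0.00994 FPKM and 2 of 10 were detected. Around BZR1 and BAK1 the medians were 0.0380 and 0.323 FPKM, with 3 of 10 detected around each. BRD1, BZR1 and BAK1 thus each stood among mostly undetected loci, and how often other loci do was not counted. DLT, LIC and D2 had medians of 11.99, 6.82 and 6.14 FPKM around them, above their own means. In all, 7 of the 10 genes were above the median of their nearest loci, as were 79.9% of all loci detected in both libraries. With other numbers of loci on each side, or 1 library alone, the count was 6 to 8.

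The loci around BRD2, DLT and BRD1 were also compared between libraries. The next lower numbered locus to BRD2 had levels of 56.8 and 54.4 FPKM in replicates 1 and 2, whereas BRD2 itself had 28.4 and 56.7 FPKM. Of the 5 loci near BRD2 whose mean was at least 1 FPKM, 0 were over 1.5-fold higher in replicate 2. Near DLT this held for 1 of 10 such loci, and near BRD1 for 0 of 2. With 15.3% of rows over the whole table differing so, counts this small do not set these stretches apart. The median log2 ratio of replicate 1 over replicate 2, after scaling, was -0.05 around BRD2, -0.09 around DLT and 0.24 around BRD1, where it rests on 2 loci.

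**Figure D4:**
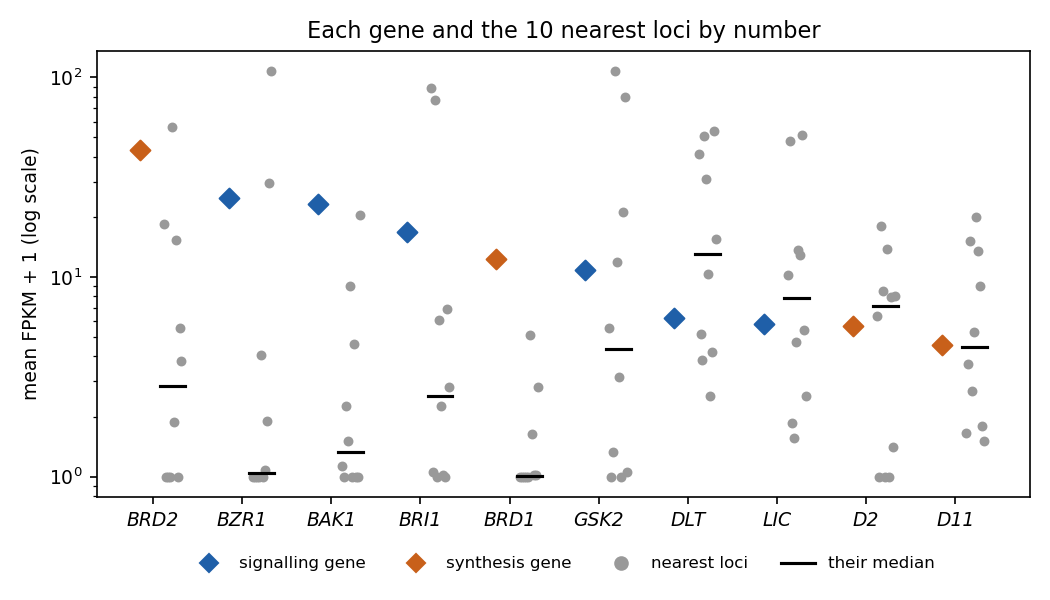
Mean FPKM + 1 on a log axis for each of the 10 genes (diamonds) and for the 10 nearest loci by number (grey points, with their median as a bar). BRD1 and BAK1 lie above all of their nearest loci, and DLT, LIC and D2 lie below the median of theirs.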

How the data were processed

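Expression is in FPKM as computed and deposited by the authors, per the file headers, in a table for each library. The submitters' processing notes name TopHat2 and Cufflinks. Build, annotation and filters are not stated in the labels or headers. Locus IDs follow a japonica annotation; if the reads were aligned to a japonica genome, divergent 93-11 reads could be lost and levels understated. The values of BAK1, LIC, D11 and BRD1 carry more than 6 significant digits, as do 24.9% and 24.6% of values above 0 in replicates 1 and 2. How a locus value was formed from its transcripts is not stated, and this bears on the level of such genes. The rule that lists the genes uses no measured value, but the genes and lists were chosen with earlier results of these data known. The text names the 10 genes alone. The depth is unknown. The spacing of 1169 low values fitted best at a relative depth of 1.13 (replicate 1 over replicate 2), but only 12.0% of them lay on that spacing, against a median of 4.11% over the similar depths searched, so this is a weak estimate. Levels are FPKM as deposited, and differences between libraries use a pseudocount of 1 FPKM after scaling to the same total. Alternatives were other thresholds, scalings, pseudocounts, fold limits, windows and single libraries. Tables were read with pandas 2.3.3, computed with numpy 2.4.6 and scipy 1.17.1 in Python 3.11.15, and drawn with matplotlib 3.10.9.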

Additional observations from a re-analysis of the deposited data

How the results depend on the processing

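No paired analysis was possible because both libraries form a single group. All 10 genes were detected at 0.1 and 0.5 FPKM, 6 at 5 FPKM and 4 at 10 FPKM in both libraries. The share of all rows detected in both libraries was taken at 1 FPKM only, at 53.1%. The fall in count at higher thresholds is thus not a result about these genes. At the lowest fold limit tried, 6 genes differed between libraries, as did 41.3% of rows whose mean was at least 1 FPKM. At the limit of 1.5-fold, 3 genes did under each scaling and pseudocount tried, against 20.9% of those rows in the main setting. The number of genes further apart than 90% of loci of like level was 3 when scaled to the same total, 2 by the median of ratios and 1 without scaling. Some loci of every level pass this cut by construction, so these counts are not a result about the genes as a set. The log2 excess of the signalling over the synthesis median was 0.22 with mean log2 levels and 1.26 without BRD2. In a setting chosen after seeing the data, it was 1.72 without BRD2, BRD1 and DLT. With sums it was 0.45, where 6 signalling genes were set against 4 synthesis genes, so gene number adds to it. The mean FPKM per gene was higher for synthesis in replicate 2 and higher for signalling in replicate 1. The excess of the medians was 0.54 in replicate 2 alone and 0.88 in replicate 1 alone. The median percentile was 64.3 among loci above 0 and 50.6 among detected loci. The cause of these changes was not tested, except that higher thresholds and fewer loci act by construction. Non-overlapping neighbours numbered 3 when scaled to the same total. Leaving out 1 of 2 libraries moves a mean by less than their SD in every case, so it says nothing of the stability of single genes. LIC was higher in replicate 1 as deposited, with a log2 ratio of 0.09, and higher in replicate 2 when scaled to the same total, by less than the fold limit. Fragment counts are unknown, so the counting error of these values is too.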
